A study of Mus musculus with 4 samples.

Results

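Stra8, Meiosin, Meioc and Ythdc2 are 4 regulators of the entry of germ cells into meiosis, and their 4 rows (of 19321 genes, with Meiosin listed under its older symbol Gm4969) were followed through the fetal mouse ovary. Gonads of XX embryos of the C57BL/6 strain had been dissociated at 4 stages a day apart, from E11.5 to E14.5 (E for embryonic day), and profiled with the 10x Chromium 3′ kit, version 2, with 1 library per stage and no other genotype or treatment. The labels do not say how many embryos went into a library. With 1 library per stage, no difference between stages could be tested, stage and library cannot be told apart, and no p-value is given. Intervals in parentheses are exact 95% intervals (Poisson for summed counts, Clopper-Pearson for shares of cells), and they cover counting error only.

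Meiosis begins in the ovary before birth, when proliferating germ cells replicate their DNA a last time and enter prophase. STRA8, which is induced by retinoic acid and BMP signals, and its partner MEIOSIN act together as transcription factors that switch on meiotic genes. MEIOC binds YTHDC2, an RNA helicase with a YTH domain that can read the m6A mark on RNA, and the pair is known for lowering transcripts of the mitotic cycle as cells move into prophase.

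A cell was counted as a germ cell when at least 3 of Dazl, Ddx4, Dnd1, Mael, Dppa5a and Mov10l1 had a UMI (unique molecular identifier, 1 captured RNA molecule). In stage order this gave 246, 651, 760 and 2424 germ cells out of 4809, 4738, 4766 and 4717 cells, beside 4563, 4087, 4006 and 2293 other cells. The median germ cell held 31270.5, 27750, 24829.5 and 15570.5 UMIs in stage order, and the median other cell 13916, 12167, 10513 and 10312. All 6 germ cell markers kept out of the rule (Pou5f1, Sall4, Dppa3, Tfap2c, Nanos3 and Lin28a) were present in the germ cells, with a summed level of 1267 CPM (UMIs of a gene per 1000000 UMIs of the cells) at E11.5 and 807 at E14.5, against 29.4 and 16.7 in the other cells. Pre-granulosa markers summed to 30.02 and 57.4 CPM in the germ cells at these stages and to 674 and 710 CPM in the other cells, where Foxl2, a defining gene of that lineage, was itself near 0 (0.0577 CPM at E11.5 and 0.0670 at E14.5). Haemoglobin RNA summed to 1020 and 4864 CPM in the germ cells and to 22604 and 16531 CPM in the other cells. Any pair of libraries shared 19 to 36 cell barcodes. At the edge of the rule, the 55 cells of E14.5 with exactly 3 markers held Stra8 at 374 CPM and the 171 cells with exactly 2 markers held it at 15.9 CPM. The cut was less sharp early on. At E11.5 Pou5f1 stood at 55.9 CPM in the 121 cells with exactly 2 markers and at 148 CPM in the 79 with exactly 3. At E12.5 it stood at 34.5 CPM in 102 cells and at 154 CPM in 61 cells. Cells with germ cell RNA were thus left among the other cells of these stages.

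In the mouse genome (GRCm38, GENCODE annotation) Stra8 lies on the forward strand at chr6:34920163-34939344 and Gm4969 on the reverse strand at chr7:19099046-19118368. Meioc lies on the forward strand at chr11:102663716-102682237. These genes are protein-coding, and 0 annotated genes overlap them. The upstream sequences of Meiosin and Meioc are shown because their windows hold motifs of factors linked to meiotic entry, so the matches had a part in the choice. No upstream window of Ythdc2 is reported. Both sequences are from the RefSeq promoter table (GRCm38.p6), read 5′ to 3′ on the strand of the gene. Capitals mark matches to CACGTG (the E-box bound by MAX partners), GCGGGAA (E2F) and CNCCTCAG (the motif reported for STRA8 and MEIOSIN). The Meiosin sequence covers chr7:19118369-19118594 on the reverse strand, 226 bases, and the Meioc sequence chr11:102665335-102665584 on the forward strand, 250 bases. The latter lies inside the GENCODE gene, downstream of its annotated start, and overlaps 0 exon bases.
Meiosin (Gm4969): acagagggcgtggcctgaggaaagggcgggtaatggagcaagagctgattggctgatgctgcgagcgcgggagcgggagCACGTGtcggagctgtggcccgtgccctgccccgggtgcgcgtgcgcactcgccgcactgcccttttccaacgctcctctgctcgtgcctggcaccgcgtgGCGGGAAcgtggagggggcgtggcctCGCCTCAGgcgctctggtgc
Meioc: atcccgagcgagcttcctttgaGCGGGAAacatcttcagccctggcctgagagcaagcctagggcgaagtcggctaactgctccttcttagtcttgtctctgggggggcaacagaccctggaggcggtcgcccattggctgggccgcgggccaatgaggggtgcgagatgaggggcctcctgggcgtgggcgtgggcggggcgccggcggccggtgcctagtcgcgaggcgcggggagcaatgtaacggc
The Meiosin window held 1 match to each of the 3 motifs, with first bases 171, 70 and 44 bases before the RefSeq start, and the Meioc window held 1 match to GCGGGAA, 228 bases before the start. Among 32851 promoter windows of 250 bases, searched on both strands, 6.02% held CACGTG, 3.82% GCGGGAA and 6.42% CNCCTCAG. The Stra8 window, chr6:34920698-34920947, lies wholly in an annotated exon and is not printed. It held 0 matches to the 3 motifs and 0 retinoic acid response elements of the DR2 or DR5 form, where 0.174% and 0.0883% of all windows held one. The hexamer AGGTCA, of which such elements are built and which was searched after the other motifs had been counted, occurred in it 194 and 38 bases before the start and was present in 14% of all windows. These matches are descriptions of letters in these windows and say nothing of binding.

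Stra8, the gatekeeper of meiotic entry, was not detected in the germ cells of E11.5, barely present at E12.5 and abundant at E14.5. Over the stages in order its level in germ cells was 0 CPM (0 UMIs, which allows up to 0.377 CPM), 1.87 CPM (36 UMIs, 1.31 to 2.59), 131 CPM (126 to 136) and 911 CPM (902 to 921). The intervals of the last 3 stages did not overlap. The log2 change was 6.13 from E12.5 to E13.5 (5.66 to 6.65) and 2.80 from E13.5 to E14.5 (2.74 to 2.86), and the E14.5 level was at least 2419-fold higher than that of E11.5, with 3 UMIs over the group as the floor. The Stra8 RNA of E13.5 was unevenly spread. The 76 of 760 germ cells with most Stra8 held 52.6% of its UMIs at E13.5, whereas the top 243 of 2424 cells of E14.5 held 23.5%. At E12.5 all 36 UMIs came from 20 cells.

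Meiosin, the partner of STRA8, gave few UMIs and was clearly higher only at E14.5. Its germ cell level, stage by stage, was 0.377 CPM (3 UMIs, 0.0777 to 1.10), 0.572 CPM (11 UMIs, 0.286 to 1.02), 0.922 CPM (18 UMIs, 0.546 to 1.46) and 5.66 CPM (232 UMIs, 4.96 to 6.44). The intervals of the first 3 stages overlapped, and only that of E14.5 lay apart. From E13.5 to E14.5 the log2 change was 2.62 (1.93 to 3.399), and from E12.5 to E13.5 it was 0.69 with an interval that includes 0 (-0.47 to 1.92).

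Meioc, like Stra8, was not detected at E11.5 and was higher at each later stage. In germ cells it went from 0 CPM (0 UMIs, which allows up to 0.377 CPM) through 0.988 CPM (19 UMIs, 0.595 to 1.54) and 11.6 CPM (10.2 to 13.2) to 100.2 CPM (97.1 to 103) at E14.5. The log2 change was 3.56 from E12.5 to E13.5 (2.88 to 4.31) and 3.11 from E13.5 to E14.5 (2.91 to 3.31), and E14.5 was at least 266-fold above E11.5. As with Stra8, the intervals of the last 3 stages did not overlap.

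Ythdc2, the helicase partner of MEIOC, was present from the first stage on and stood higher after 2 of the 3 steps between stages. The protein-coding gene lies on the forward strand at chr18:44827746-44889724 and overlaps no other annotated gene. Its germ cell level was 6.53 CPM (4.88 to 8.56), then 18.9 CPM (17.0 to 20.99), 20.2 CPM (18.3 to 22.3) and at last 51.2 CPM (49.0 to 53.5). The levels of E12.5 and E13.5 did not differ beyond their intervals. The 3 log2 changes between neighbouring stages were 1.54 (1.11 to 1.98), 0.10 (-0.11 to 0.30) and 1.34 (1.18 to 1.499), and the change over all of them was 2.97 (2.57 to 3.397). Under a median-of-ratios scaling the small change from E12.5 to E13.5 turned to -0.038. That scaling moved the E14.5 germ cells by 0.23 and those of E11.5 by -0.15 on the log2 scale relative to total UMIs.

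**Figure D1:**
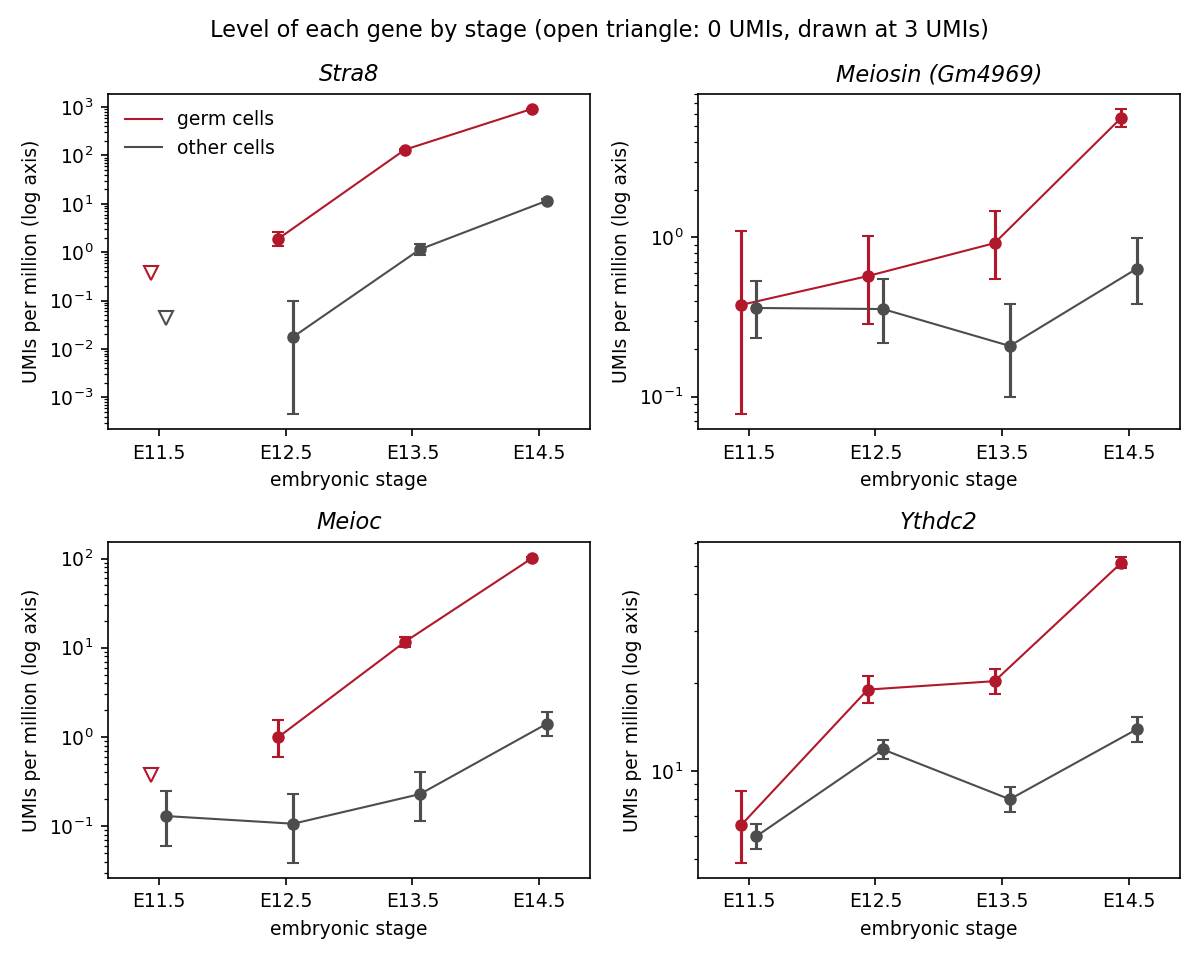
Level of each gene in germ cells (red) and other cells (grey) by embryonic stage, in CPM on log axes that differ between panels; points are summed libraries, bars exact 95% Poisson intervals, and open triangles mark 0 UMIs, drawn at the level of 3 UMIs. At E11.5 germ cells and other cells did not differ beyond their intervals for any of the 4 genes, and at E14.5 they lay apart for all 4.

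Every gene was highest at E14.5. Set against that stage, Ythdc2 stood higher beforehand than Stra8 and Meioc, which ran much alike. Ythdc2 had 12.8%, 37.0% and 39.5% of its E14.5 level at the 3 earlier stages. Stra8 stood at 0%, 0.205% and 14.4%, and Meioc at 0%, 0.987% and 11.6%. Meiosin stood at 6.65%, 10.1% and 16.3%, but with so few UMIs that its E11.5 to E13.5 values cannot be ordered. At E11.5 and E12.5 its level in germ cells also did not differ from that of the other cells beyond the intervals.

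Because the germ cells of E14.5 held fewer UMIs each, 2000 UMIs were drawn at random from every cell before the share of cells with a gene was compared. Stra8 was then found in 0 of 246 germ cells at the first stage (which allows at most 1.22%) and in 0.461%, 19.7% (17.0 to 22.7) and 73.3% (71.5 to 75.0) of those of the 3 later stages. Without thinning, these 3 shares were 3.07%, 50.9% and 95.05%. Meioc was found in 0%, 0.768%, 2.50% and 20.2% (18.6 to 21.9) after thinning, stage by stage, and in 0%, 2.46%, 19.1% and 69.6% without thinning. Ythdc2 was found in 2.85%, 4.30%, 4.61% and 10.1% (8.90 to 11.3), and in 18.7%, 41.6%, 39.7% and 54.5% without thinning. The unthinned share of Ythdc2 fell short of E12.5 at E13.5 while its CPM did not, and no order is read from it. Meiosin was found in 0 of 246 and 0 of 651 thinned germ cells of the first 2 stages, in 1 of 760 at E13.5 and in 38 of 2424 (1.57%, 1.11 to 2.15) at E14.5. By these shares, Stra8, Meioc and Ythdc2 lay above the other cells from E12.5 on, with intervals that did not overlap, and Meiosin from E14.5 on. The E12.5 separation depended on the thinning depth: at 1000 UMIs the intervals overlapped for Stra8 (0.0372 to 1.11% against 0 to 0.0902%), for Meioc (the same bounds) and for Ythdc2 (0.846 to 3.003% against 0.867 to 1.55%), and at 4000 UMIs for Meioc (0.0372 to 1.11% against 0.00062 to 0.136%). By CPM, Meiosin lay above the other cells from E13.5.

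**Figure D2:**
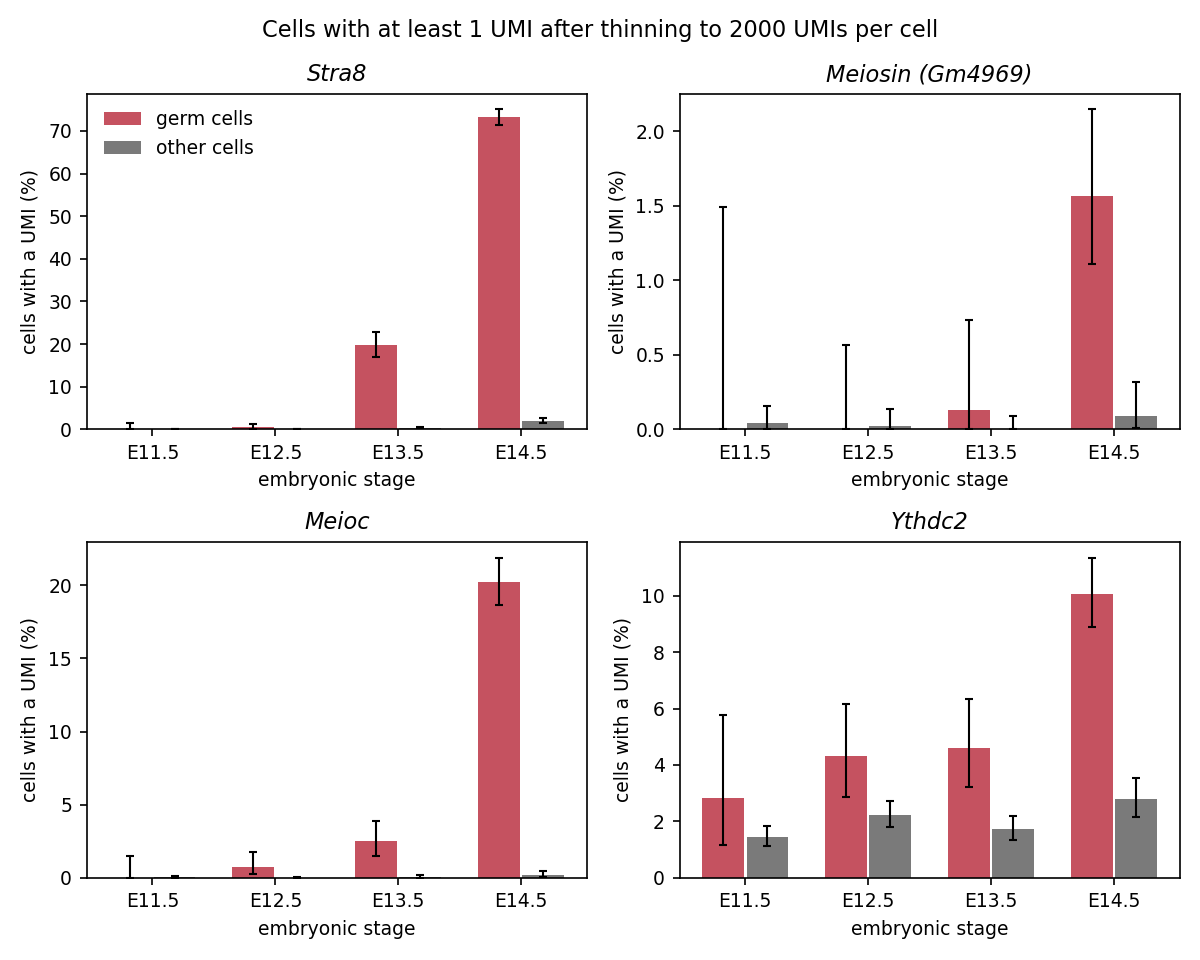
Percentage of germ cells (red) and other cells (grey) with at least 1 UMI of each gene by stage, after every cell was thinned to 2000 UMIs; error bars are exact 95% binomial intervals and the vertical axes differ between panels. The Stra8 share of germ cells is 0% at the first stage and 73.3% at the last, and the other 3 genes have their highest share at E14.5 as well.

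In the other cells, Stra8 and Meioc stood at under 2% of their germ cell levels at E14.5, and Meiosin and Ythdc2 at larger shares. There Stra8 had 0, 1, 55 and 345 UMIs over the stages, or 0 CPM (which allows up to 0.0433 CPM), 0.0178 CPM, 1.14 CPM and 11.6 CPM (10.4 to 12.8), and the last value was 1.27% of the germ cell level. Meioc came to 1.40% of its germ cell level at E14.5 (1.41 CPM). Of the germ cell genes measured in the same way, Smc1b came to 1.35%, Sycp3 to 1.597% and Tex101 to 1.65%. Among the other cells of E14.5 with none of the 6 germ cell markers, Stra8 was at 11.4 CPM, against 11.7 CPM in those with 1 or 2. In every somatic gate of E14.5 (cells with at least 3 markers of exactly 1 somatic lineage, or, for erythroid cells, at least 10% haemoglobin UMIs) Stra8 was between 5.75 CPM in 64 erythroid cells and 21.6 CPM in 151 surface epithelium cells. A thinned Stra8 UMI was found in 2.05% of the other cells of E14.5 (1.51 to 2.72) and in 73.3% of the germ cells. The interval of surface epithelium (14.9 to 30.1) did not overlap those of interstitial (7.94 to 14.4) and erythroid cells (1.87 to 13.4). It did overlap those of pre-granulosa (11.4 to 17.0), endothelial (7.85 to 35.8) and immune cells (1.98 to 28.0). RNA freed from germ cells can give UMIs in other droplets, and its part in these values was not tested.

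Ythdc2 stood at 5.99 CPM (5.42 to 6.59), 11.8 CPM (10.96 to 12.8), 8.01 CPM (7.23 to 8.85) and 13.9 CPM (12.6 to 15.3) in the other cells of the 4 stages, or 91.7%, 62.5%, 39.6% and 27.1% of its level in germ cells. Both classes of cells were level at E11.5 within their intervals, and the log2 difference of germ cells over other cells then widened to 0.68, 1.34 and 1.89 (1.73 to 2.04 at E14.5). Ythdc2 also varied among the somatic gates. In pre-granulosa cells, the supporting lineage, it was 4.40 (3.68 to 5.23), 8.35, 6.56 and 8.84 CPM (6.82 to 11.3). In surface epithelium it was 13.2 (9.66 to 17.7), 17.9, 12.95 and 12.7 CPM (7.75 to 19.6), and in interstitial cells 7.11, 15.8, 7.73 and 13.6 CPM. The 343 cells of E14.5 that met no gate held it at 20.1 CPM (16.8 to 23.7), with 137 of the 414 Ythdc2 UMIs of the other cells. Pre-granulosa and surface epithelium cells did not overlap in their intervals from E11.5 to E13.5 and did overlap at E14.5. Meiosin in the other cells stayed between 0.208 CPM (10 UMIs at E13.5) and 0.636 CPM (19 UMIs at E14.5), and came to 95.7% of the germ cell level at E11.5 and 11.2% at E14.5.

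**Figure D3:**
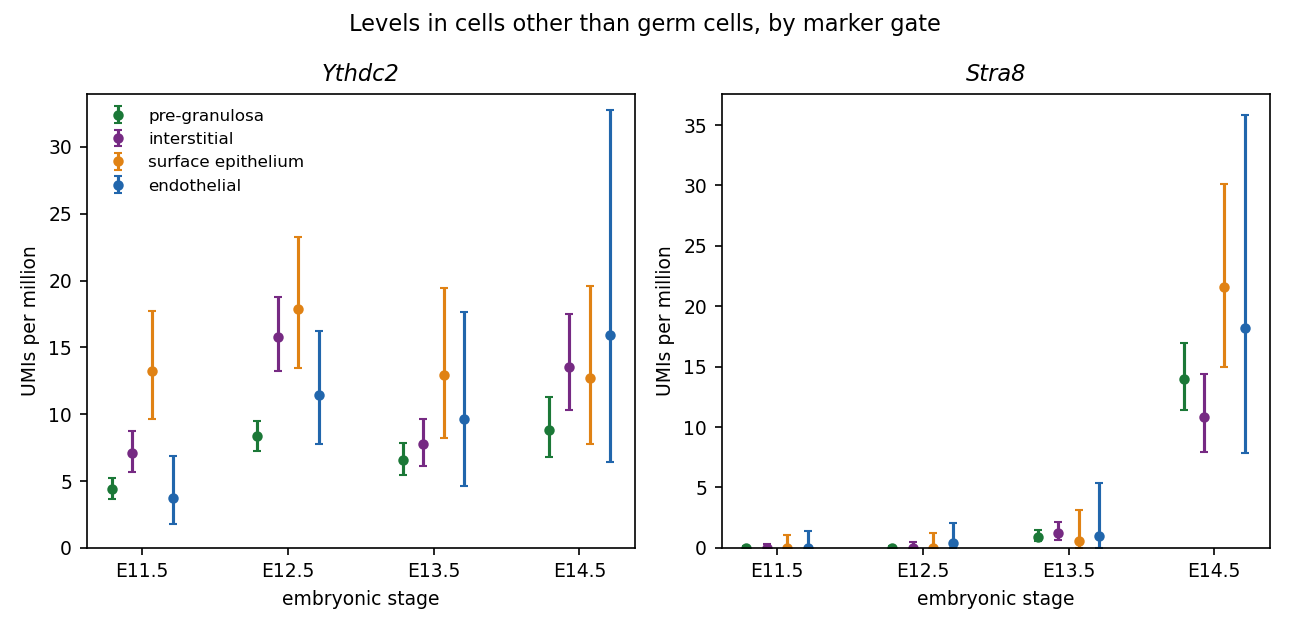
Ythdc2 (left) and Stra8 (right) in cells other than germ cells that carried at least 3 markers of exactly 1 somatic lineage, by stage, in CPM with exact 95% Poisson intervals. Ythdc2 is lower in pre-granulosa than in surface epithelium cells up to E13.5, while Stra8 stands between 10.8 and 21.6 CPM in the 4 gates at E14.5.

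Among all germ cells of E14.5, most carried Stra8, with or without the others, and few held the others without Stra8. After thinning, 548 of 2424 cells (22.6%) held none of the 4 genes, 1268 (52.3%) held 1, 546 (22.5%) held 2, 60 (2.48%) held 3 and 2 (0.0825%) held all 4. Stra8 alone was the most frequent state with 1176 cells (48.5%, 46.5 to 50.5), followed by Stra8 with Meioc in 372 cells (15.3%) and Stra8 with Ythdc2 in 145 cells (5.98%). Meioc alone was found in 51 cells (2.10%) and Ythdc2 alone in 37 cells (1.53%). At E13.5 the order was different in that 573 of 760 cells (75.4%) held none and 134 (17.6%) Stra8 alone, and Ythdc2 alone was found in 26 cells (3.42%). At E12.5 0 of 651 thinned cells held more than 1 of the genes. These states depend on depth. Without thinning, the most frequent state of E14.5 was Stra8 with Meioc and Ythdc2, in 843 cells (34.8%). Stra8 with Meioc followed in 652 cells (26.9%). Stra8 alone was then found in 305 cells (12.6%) and all 4 genes in 118 cells (4.87%).

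Stra8 and Meioc were found together in 431 cells of E14.5 (17.8%, 16.3 to 19.4), where 14.8% would hold both if the genes were detected independently, a ratio of 1.20. Meioc was found in 24.3% of the cells with Stra8 (22.3 to 26.3) and in 9.10% of those without (7.003 to 11.6). Seen from the other side, Stra8 was found in 88.0% of the cells with Meioc (84.7 to 90.7) and in 69.5% of those without (67.4 to 71.6). At E13.5 both were found in 8 cells (1.05%, 0.456 to 2.06), where independence gives 0.493%, and the interval includes that value. At greater depth it did not, with 29 cells at 4000 UMIs (3.82%, 2.57 to 5.43, against 1.46%) and 126 cells without thinning (16.6%, 14.003 to 19.4, against 9.72%).

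Ythdc2 and Meiosin were also set beside the others at E14.5. Ythdc2 was found in 11.2% of the cells with Stra8 (9.77 to 12.8) and in 6.94% of those without (5.11 to 9.18), with intervals that do not overlap. Stra8 and Ythdc2 were found together in 199 cells (8.21%, 7.15 to 9.37), where independence gives 7.38%, a value inside the interval. Meioc and Ythdc2, whose proteins bind each other, were found together in 59 cells (2.43%, 1.86 to 3.13), where independence gives 2.03%. The interval includes that value. Without thinning it was 966 cells (39.9%, 37.90 to 41.8, against 37.93%), and this interval includes the independent value as well. At 4000 UMIs it was 191 cells (7.88%, 6.84 to 9.02, against 6.52%) and at 1000 UMIs 30 cells (1.24%, 0.837 to 1.76, against 0.653%). The intervals at 4000 and 1000 UMIs lie above the independent value, so the result for the joint share depends on depth. Without thinning, Ythdc2 was found in 57.3% of the cells with Meioc (54.9 to 59.6) and in 48.2% of those without (44.5 to 51.8). These intervals lie apart. They also lie apart at 4000 UMIs (20.7 to 26.7 against 15.6 to 19.4). The same holds at 1000 UMIs (7.57 to 15.4 against 4.26 to 6.18). At 2000 UMIs they overlap (9.29 to 15.3 against 8.29 to 10.96). Of the 38 cells with Meiosin, 34 also held Stra8 (89.5%, 75.2 to 97.1), against 73.0% of the cells without Meiosin, and 10 held Meioc. Without thinning, all 210 E14.5 germ cells with Meiosin held Stra8 (100%, 98.3 to 100), against 94.6% of the cells without Meiosin.

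**Figure D4:**
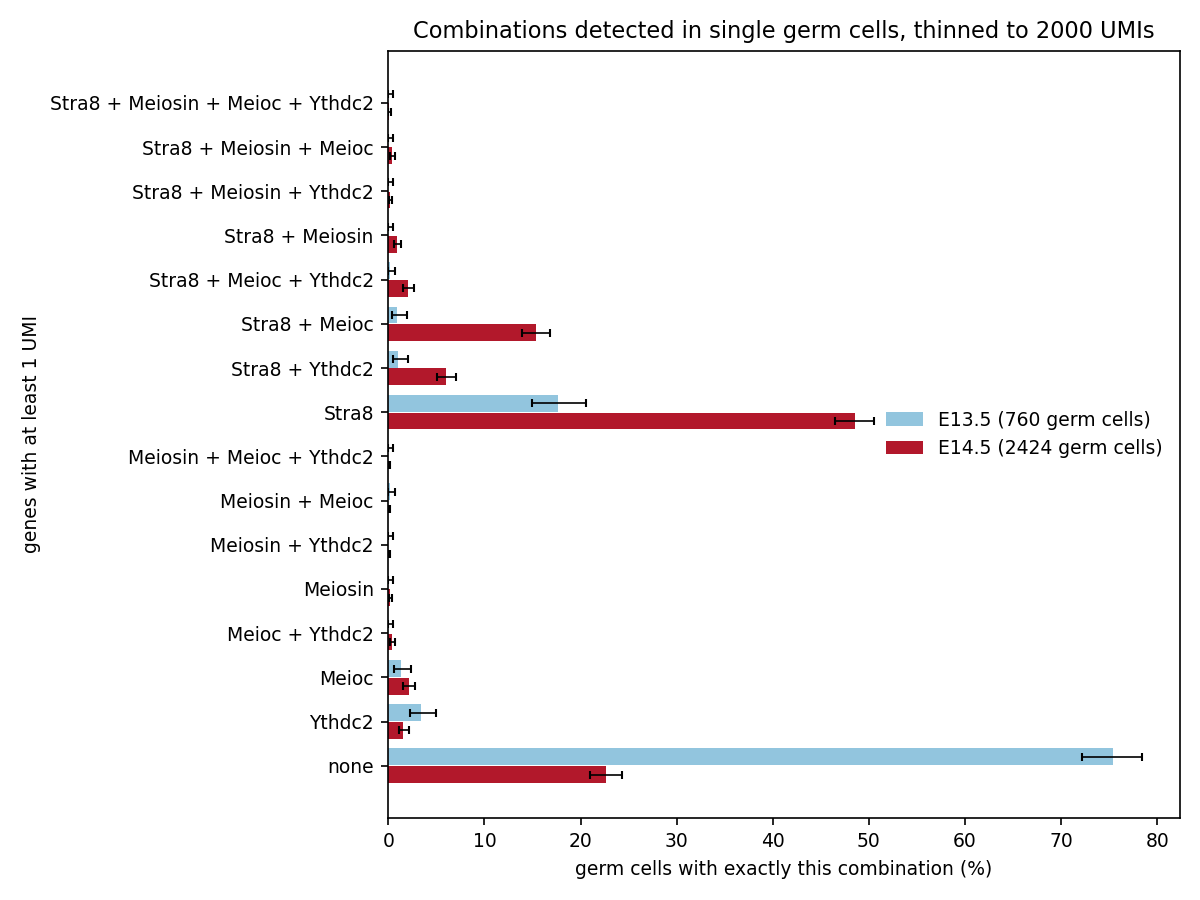
Percentage of germ cells of E13.5 (blue) and E14.5 (red) with exactly the named combination of genes detected, after thinning to 2000 UMIs per cell; error bars are exact 95% binomial intervals. At this depth, cells with none of the genes are the largest class at E13.5 (75.4%), and cells with Stra8 alone at E14.5 (48.5%). Without thinning, cells with Stra8 alone made up 12.6% at E14.5.

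Dividing the unthinned germ cells by the presence of Stra8 shows how far the other 3 followed it within a stage. At E13.5 the 387 cells with Stra8 held Meioc at 21.9 CPM (19.1 to 25.1) and Ythdc2 at 25.6 CPM (22.5 to 29.1). The 373 cells without Stra8 held Meioc at 1.98 CPM (1.21 to 3.06) and Ythdc2 at 15.2 CPM (12.9 to 17.8). Both genes were thus higher beside Stra8, with intervals that do not overlap, while the Meiosin intervals (0.734 to 2.36 CPM against 0.161 to 1.16 CPM) did overlap. At E14.5 the 120 cells without Stra8 held Meioc at 7.79 CPM (4.69 to 12.2) against 106 CPM (103 to 109) in the 2304 cells with it, and the pluripotency gene Pou5f1 at 322 CPM against 165 CPM. Of these 120 cells, 23 carried at least 3 pre-granulosa markers, against 92 of the 2304. The pre-granulosa gene Fst stood at 29.9 CPM in the former and 6.26 CPM in the latter. The part of somatic RNA in the cells without Stra8 was not tested.

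The 20 germ cells of E12.5 with Stra8 already stood apart in other genes. They held Ythdc2 at 37.1 CPM (23.0 to 56.8), against 18.4 CPM (16.5 to 20.4) in the 631 cells without Stra8. Smc1b, a meiotic cohesin subunit, was at 340 CPM (293 to 391) against 153 CPM (147 to 158), and Sycp1, of the transverse filaments of the synaptonemal complex, at 44.2 CPM (28.6 to 65.3) against 16.3 CPM (14.6 to 18.3). Pou5f1 was lower in them, at 90.2 CPM (67.2 to 119) against 147 CPM (142 to 153). Meioc, with 3 UMIs in the 20 cells, stood at 5.31 CPM (1.09 to 15.5) against 0.858 CPM, and its intervals overlapped. Of the 20 cells, 0 had a barcode found in another library and 2 carried at least 3 pre-granulosa markers, against 34 of the 631.

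All 4 genes were higher in E14.5 germ cells with more RNA of the synaptonemal complex, the protein scaffold between paired chromosomes. In cells thinned to 4000 UMIs and binned by their UMIs of Sycp1, Sycp2 and Sycp3, the cells with 0, 1 to 2, 3 to 5, 6 to 9 and 10 or more such UMIs numbered 380, 772, 708, 401 and 163. Meioc stood at 29.2, 66.6, 126, 182 and 219 CPM over these bins. Ythdc2 stood at 31.6, 41.3, 55.7, 80.2 and 85.5 CPM, and Meiosin at 1.98, 3.29, 6.06, 11.01 and 17.8 CPM. The lowest and highest bins did not overlap for any of the 3. Stra8 went another way at the top, with 363, 696, 1193, 1478 (1446 to 1510) and 1289 CPM (1242 to 1338), so that the cells with most synaptonemal RNA held less Stra8 than those in the bin before. Median depth went down along the same bins, from 18818.5 to 12690 UMIs. The bins at 4000 UMIs were chosen after seeing the data. At 2000 UMIs, in bins of 0, 1, 2 and 3 or more, Stra8 stood at 511, 899, 1190 and 1343 CPM, with no turn at the top.

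**Figure D5:**
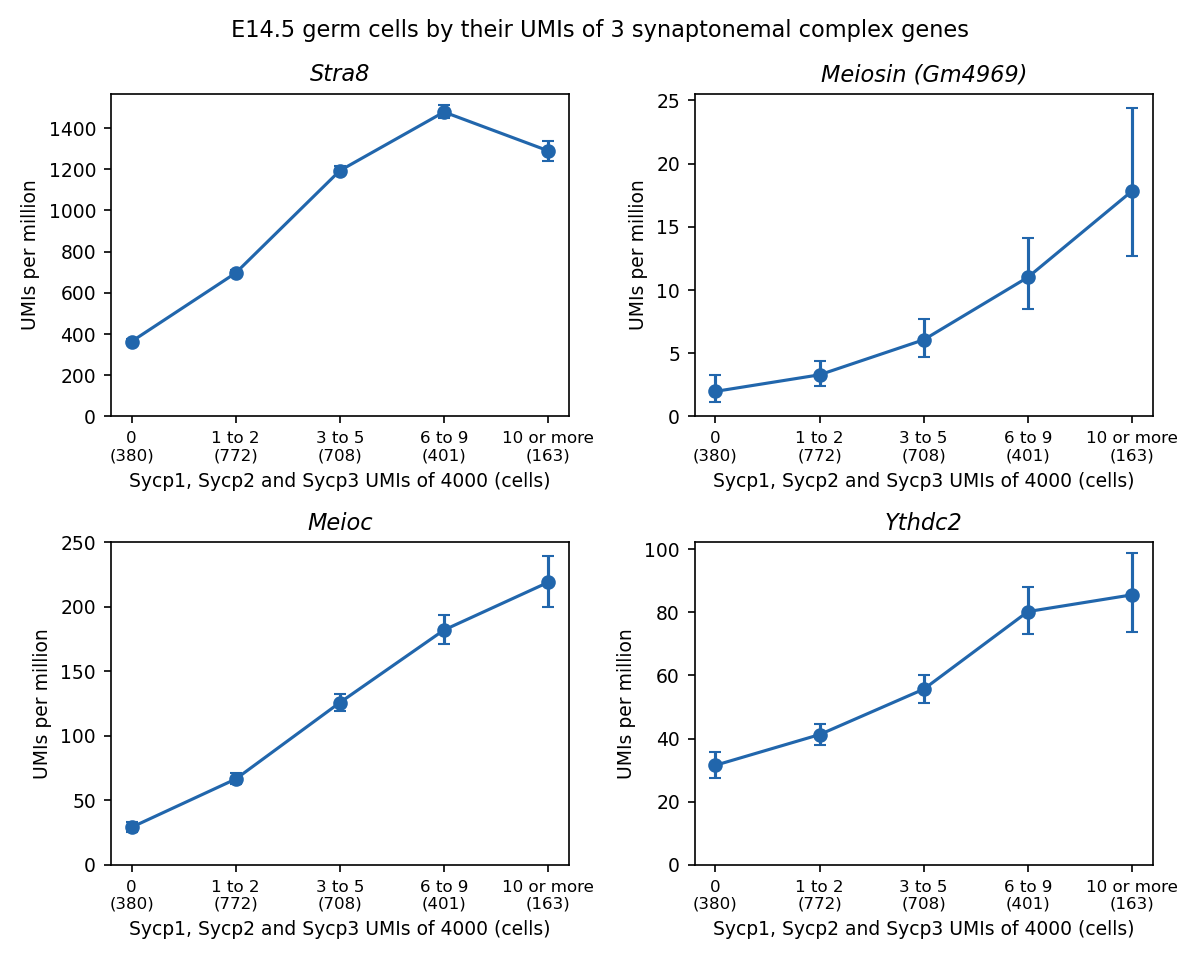
Level of each gene in E14.5 germ cells binned by their UMIs of Sycp1, Sycp2 and Sycp3 after thinning to 4000 UMIs (number of cells in brackets), in CPM with exact 95% Poisson intervals; vertical axes differ between panels. Meiosin, Meioc and Ythdc2 are highest in the last bin, whereas Stra8 is highest in the bin of 6 to 9 (1478 CPM) and lower in the last (1289 CPM).

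Against pluripotency RNA (Pou5f1, Nanog, Sox2 and Utf1) the order was the opposite. At E14.5 Stra8 stood at 1102, 888, 629 and 426 CPM in cells with 0, 1, 2 and 3 or more such UMIs of 2000, Meioc at 127, 93.8, 62.5 and 36.8 CPM, and Ythdc2 at 59.0, 50.6, 40.2 and 29.9 CPM. At E13.5 Stra8 went from 226 CPM (213 to 240) in the 196 cells with 0 to 49.5 CPM (43.2 to 56.4) in the 166 cells with 3 or more, and Meioc from 21.1 to 4.21 CPM. Ythdc2 did not follow at E13.5, with 21.9 CPM (17.9 to 26.6) and 18.4 CPM (14.7 to 22.8). Cell cycle genes gave smaller differences. In E14.5 cells with 3 or more UMIs of 6 genes of G2 and mitosis Stra8 was at 738 CPM and Meioc at 80.8 CPM, against 1018 and 112 CPM in cells with 0, and Ythdc2 was at 50.3 CPM in both bins. Genes of S phase (Mcm5, Pcna, Mcm6, Gins2, Rrm2 and Slbp) ran the other way. From cells with 0 to cells with 3 or more such UMIs, Stra8 went from 803 CPM (785 to 822) to 972 CPM (953 to 992) and Meioc from 85.9 CPM (79.9 to 92.1) to 110 CPM (104 to 117).

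Stage was also set against the number of Stra8 UMIs drawn from a cell. Among cells with 1 thinned Stra8 UMI, Meioc was at 32.7 CPM at E13.5 (25.5 to 41.3) and 89.9 CPM at E14.5 (83.9 to 96.3). Among cells with 2 to 3 it was at 46.8 CPM (35.0 to 61.2) and 130.3 CPM (124 to 137), so cells of E14.5 held more Meioc than cells of E13.5 in the same Stra8 bin. Ythdc2 differed likewise at 1 UMI (26.6 CPM, 20.2 to 34.5, against 52.1 CPM, 47.5 to 57.0). Within these bins the median cell of E13.5 held 21661 and 21933 UMIs and that of E14.5 15601.5 and 15008 UMIs. The bins do not match the Stra8 level of cells between stages. Over all germ cells Stra8 was at 131 CPM at E13.5 and 911 CPM at E14.5, and a few drawn UMIs follow the level of a cell loosely. The parts of stage and of Stra8 level in these differences cannot be told apart.

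The background over all genes came from a rule of size. A gene met its minimums with 50 UMIs in the germ cells of 2 stages summed and 20 CPM in the higher stage, and it was called when the levels differed 4-fold or more and their Poisson intervals lay apart. From E11.5 to E12.5, 0 of the 4 genes met the minimums, and 0.082% of 4876 genes were called higher and 0.0205% lower. From E12.5 to E13.5, 0.0977% of 5119 genes were called higher, that is 5 genes with Stra8 among them, and 0.0195% lower. From E13.5 to E14.5, 1.22% of 5633 genes were called higher and 0.124% lower. Stra8 and Meioc were called higher, Ythdc2 met the minimums with a ratio of 2.53 (2.27 to 2.83), and Meiosin did not reach 20 CPM. From E11.5 to E14.5, 6.45% of 5734 genes were called higher and 1.62% lower, and Stra8, Meioc and Ythdc2 were among the higher. These shares are 370 and 93 genes, and median-of-ratios scaling gave 233 and 168. With no CPM minimum Meiosin was called higher as well, as were 1675 of 12429 genes.

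Genes around the 4 regulators were counted in lists. The lists were chosen with earlier results of these data known, so their counts describe these data and are no independent support. Of 27 genes listed under meiotic prophase, 20 met the minimums from E11.5 to E14.5. Of these, 17 were called higher and 0 lower, beside 6.45% and 1.62% of all 5734 genes. The median log2 change of the 25 with UMIs at both stages was 3.72, beside 0.36 over all 15030 such genes. They included Rec8, the meiotic kleisin, which was called at E13.5 already with 7.60 CPM at E12.5 and 43.6 CPM at E13.5. Rec8 also stood at 26.9 to 21.8 CPM in the other cells at every stage, so that germ cells had less of it than other cells at E11.5 (3.01 CPM) and E12.5. Sycp1 (17.2, 62.2 and 434 CPM from E12.5), Tex101 (6.19, 17.3 and 229 CPM) and Prdm9 (0.104, 1.23 and 33.6 CPM), which marks recombination sites, were called between E13.5 and E14.5, with 6 more of the list.

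Of 25 inducing signals, receptors and readouts, 13 met the minimums from E11.5 to E14.5. Of these, 1 was called higher (Msx1, a BMP-responsive homeobox gene, from 7.03 to 86.6 CPM) and 0 lower. That is near the shares over all 5734 genes, 6.45% higher and 1.62% lower. The median of the 24 with UMIs at both stages was 0.94, beside 0.36 over all such genes. Zglp1, a nuclear factor that acts downstream of BMP in the oogenic programme, had 25.2, 63.5, 94.1 and 89.3 CPM over the stages. Its log2 changes were 1.33 (1.11 to 1.55), 0.57 (0.46 to 0.67) and -0.08 (-0.16 to 0.01), so the 2 last stages did not differ beyond their intervals. Gata2 followed a like course with 23.0, 33.6, 63.1 and 58.4 CPM.

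Of 11 repressors of meiotic genes, 9 met the minimums and 0 were called in either direction from E11.5 to E14.5, and the median of the 10 with UMIs at both stages was 0.01. Over all 5734 genes with the minimums, 6.45% were called higher and 1.62% lower. The median of all genes with UMIs at both stages was 0.36. Max, whose complex holds meiotic genes silent, went from 68.1 to 38.1 CPM, and its partner Mga from 44.1 to 96.4 CPM. Among 13 partners and m6A genes (12 in the table, 11 with the minimums), 1 was called higher and 0 lower, and the median of the 12 was 0.54. The gene called was Rbm46, an RNA-binding protein that works with MEIOC and YTHDC2, at 26.0, 44.5, 55.1 and 105 CPM. Mettl3, the m6A methyltransferase, was at 16.1 and 21.6 CPM at E11.5 and E14.5. Of 12 mitotic genes, all with the minimums, 1 was called higher (Ccnd1, from 2.76 to 111 CPM) and 0 lower, with a median of 0.17. In the m6A and mitotic lists alike, 1 gene called higher is near the share over all genes. Ccna2, a known target of MEIOC and YTHDC2, was at 123, 122, 125 and 71.0 CPM over the stages. Its log2 change from E13.5 to E14.5 was -0.82 (-0.90 to -0.74), short of the 4-fold rule. Over that step 7 of the 12 mitotic genes were lower and 5 higher, and 0 were called. Their median was -0.16, beside 0.19 over all genes with UMIs at both stages.

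Over the 8 values of each gene (4 stages, germ and other cells), the genes most like each member were sought among 13224 genes with at least 50 UMIs in germ cells, by the Pearson correlation of log2(CPM + 1). They were Adgrb1, Dym and Myh7b for Stra8 (0.992, 0.988 and 0.981) and 1700123I01Rik, Fmr1os and Fam90a1b for Meiosin (0.996, 0.994 and 0.992). For Meioc they were Eml5, Syngr4.1 and Cited1 (0.995, 0.993 and 0.991), and for Ythdc2 Camkmt, Ate1 and Golga3 (0.997, 0.994 and 0.990). Several of these genes were scarce, such as Adgrb1 with 0.126 to 1.27 CPM in germ cells, and the 8 values share their 4 libraries. The correlation compares the shape of a pattern and not its size. Dym went from 18.3 to 44.2 CPM in germ cells and from 19.7 to 25.9 CPM in other cells, whereas Stra8 went from 0 to 911 CPM in germ cells. Among the 4 regulators the closest pair was Stra8 and Meioc (0.976), and the others lay between 0.879 and 0.9503.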

How the data were processed

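The authors deposited 1 table of natural log values, ln(1 + UMIs per 10000 in each cell), a unit inferred from the numbers themselves. Per the submitters' processing notes, Cell Ranger 2.2.0 and mm10 were used. Their filters and cell calling are not given in the sources used here. After back-transformation all 69792436 values above 0 were whole multiples of the smallest in their cell (relative tolerance 1e-06), and these multiples were taken as UMI counts. Recovered UMIs were used where the plan had named counts, and 0 columns of the table were left unmatched. Cell-name prefixes gave the stage. The 19387 cells lost 5 with over 20% mitochondrial UMIs and 105, 104, 75 and 70 doublets (2.14%, 2.15%, 1.55% and 1.46%), scored per library with a re-implemented Scrublet score; some cells met both criteria. CPM is the sum of UMIs of a gene over the sum of all UMIs of the cells. Ratios carry the exact binomial split of both counts. Thinning used seed 1, and 0 cells were left out by it. Alternatives were other thinning depths, the germ cell rule with 2 or 4 markers, doublets kept, cells with haemoglobin or pre-granulosa markers or low depth left out, median-of-ratios scaling and other limits of the size rule, and the closing section gives their effect. Python 3.11.15 with numpy 2.4.6 and scipy 1.17.1 was used. UMIs of a 3′ kit are not set against gene length, so levels are compared within a gene. Genes named are the 4 regulators, members of 5 gene lists, the 3 genes most like each regulator, the markers of the cell classes and the genes that bin the cells. The regulators, lists, markers and motifs were chosen with earlier results of these data known.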

Additional observations from a re-analysis of the deposited data

How the results depend on the processing

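Alternatives were run on 60 results. Of the 12 log2 changes between stages in germ cells, 81 of 84 recomputed values stayed within the interval of the reported one. From E13.5 to E14.5, Stra8 moved to 2.87 with germ cells defined by at least 2 markers, and under median-of-ratios scaling Stra8 moved to 2.62 and Ythdc2 to 1.16. The change of Ythdc2 from E12.5 to E13.5 reversed to -0.038 under that scaling, which is within its interval. Shares depend on depth by construction. At E14.5 the share of germ cells with Stra8 was 95.05% without thinning, 55.7% at 1000 UMIs, 86.0% at 4000 UMIs and 68.5% with at least 2 markers. For Meiosin it was 8.66%, 0.743% and 2.31%, for Meioc 69.6%, 11.2% and 33.4%, and for Ythdc2 54.5%, 5.82% and 19.5% (no thinning, 1000 and 4000 UMIs). Cells with both Stra8 and Meioc made up 69.1%, 7.59% and 31.9%, and their ratio to independence was 1.04, 1.21 and 1.11. The levels in other cells at E14.5 stayed within their intervals. With a ratio of at least 2, 461 genes were higher and 132 lower from E13.5 to E14.5, and 1281 and 459 from E11.5 to E14.5. With no CPM minimum the counts were 360 and 56, and 1675 and 246. Under median-of-ratios scaling 11 were lower from E13.5 to E14.5, and 233 higher and 168 lower from E11.5 to E14.5, against 7, 370 and 93 as reported; Stra8 and Meioc were called in each. No paired analysis was possible because each stage is 1 library. No library could be left out for the same reason, and 1 library per stage limits every statement to these 4 libraries. Meiosin, with 3 to 18 UMIs before E14.5, is limited by depth.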
